A study of Mus musculus with 9 samples.

Results

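The transcript signals of the mouse olfactory bulb were ranked on 3 arrays from male ICR mice, an outbred stock, that had inhaled only the vehicle, the detergent Tween 80 at 1%, for 7 days. These 3 arrays are those of 9 in the study whose titles give the vehicle. The animals were 8 weeks old per the labels, were housed singly under a 12 h light cycle, and had a 7-day acclimation period. Behaviour was scored by tail suspension, in which immobility is timed, after 30 min of inhalation. The arrays were Clariom S with probe sets for mouse, and 21154 genes with a single symbol were ranked out of 22206 probe sets. All values are log2 signals, in which 1 unit is a 2-fold difference, each ± is an SD over n = 3 arrays, and 3 values in a row are those of replicates 1, 2 and 3. The 6 other arrays of the study were not used, and no group was compared with another.

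The olfactory bulb is the first relay of smell in the brain. Axons of olfactory sensory neurons end there in glomeruli, where mitral and tufted cells receive their input and send it on to the cortex. Granule and periglomerular interneurons, mostly GABAergic and partly dopaminergic, shape that output, and both are renewed in adult rodents by neuroblasts that migrate in from the forebrain. Ensheathing glia wrap the sensory axons where they enter.

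The labels of the 3 samples disagree in part. Titles, source names and the protocol texts give inhaled vehicle for all 3. The free-text descriptions instead give oral saline and an injection, which is saline in replicates 1 and 2 and LPS (lipopolysaccharide, a bacterial inducer of inflammation) in replicate 3, and the design text names a human array and cell line. Grouping follows the titles, and the main lists and genes that moved with replicate 3 are also given without it. The labels do not say whether the samples came from separate animals, so an SD measures only the spread between these samples.

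Replicate 3 stood somewhat apart. Pearson's r over genes was 0.992 between replicates 1 and 2, 0.987 between replicates 1 and 3, and 0.988 between replicates 2 and 3. Between replicates 1 and 2, 316 genes differed by 1 log2 unit or more, against 878 between replicates 1 and 3 and 795 between replicates 2 and 3. Array medians were 6.95, 6.97 and 6.95. The 4 measured Y-linked genes lay above the median of all genes, with Eif2s3y, a translation initiation factor subunit, brightest at 12.13 ± 0.13.

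The rank is one of array signal. Probe sets of different genes bind their targets with different strength, so a gene's position also holds that of its probes and is no molar amount. The median gene had a mean signal of 6.95. The medians of the 5222 negative control probe sets were 7.12, 7.11 and 6.94 and their 95th percentiles 11.1, 11.0 and 10.9, so the signals of genes in the lower part of the order, and of many up to about 11, lay in the range of the controls. A low rank therefore does not show that a transcript was absent. The top 25% of genes began at 9.65, the top 10% (2115 genes) at 11.87 and the top 1% (211 genes) at 15.6. In the median gene the 3 arrays had an SD of 0.217, and the percent of genes with a lower signal, the measure of position used below, ranged over 3.99 points. Where positions varied by this much, neighbours that were closer could not be ranked against each other. Near the top the positions varied less, with an SD of 0.0027 points for the gene Syp and 0.24 for Fabp7. In bulk tissue, fewer cells of a type and less RNA per cell cannot be told apart.

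Transcripts for energy supply, protein folding, lipid and iron handling and synaptic vesicles were among the brightest. The highest value in the data, 19.93, was reached in all 3 arrays by 4 genes, so these have no order among themselves. They were ND1, a subunit of respiratory complex I, COX1 and COX2, subunits of complex IV, all encoded by mitochondrial DNA, and the predicted gene Gm11032. Gm10800 reached it in replicates 1 and 2, with 19.88 in replicate 3. ND3, a further mitochondrial subunit of complex I, had 19.87, 19.86 and 19.91. Hspa8, the constitutive heat shock protein of clathrin uncoating, had 19.82 in each array. Apoe, the lipid carrier made mainly by astrocytes, had 19.66, 19.66 and 19.02, the widest spread among the 30 brightest genes.

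Fth1, the heavy chain of the iron store ferritin, averaged 19.36 ± 0.22. Cst3, a secreted inhibitor of cysteine proteases, followed with 19.13 ± 0.13, and Rmrp, the RNA of a ribonuclease that processes ribosomal RNA, with 18.97 ± 0.24. Neuronal membranes and synapses were represented by Syp, a synaptic vesicle membrane protein (18.83 ± 0.074), Syt1, the calcium sensor of vesicle fusion (18.54 ± 0.072), Atp1b1, a subunit of the sodium pump (18.69 ± 0.046), and Calm2, which encodes calmodulin (18.42 ± 0.078). Sparcl1, an astrocyte protein that promotes synapse formation, had 18.65 ± 0.046, and Ptgds, the prostaglandin D synthase of meninges and oligodendrocytes, had 18.46, 18.59 and 17.97. General cell genes in the group were Gapdh of glycolysis (18.88 ± 0.08), the translation factor Eef1a1 (18.63 ± 0.046), the splicing protein Srrm2 (18.42 ± 0.18), the 14-3-3 adaptor Ywhae (18.32 ± 0.085) and the cytoskeletal actin Actb (18.26 ± 0.12).

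Predicted genes, 2186 of all 21154, made up 10 of the 30 brightest (33.3%) and 27 of the top 211 (12.8%). The 27 are 1.24% of the predicted genes, close to the 1% of all genes that the top 211 are. Beside Gm11032 and Gm10800 the 10 were Gm10717, Gm10491, Gm1821, Gm17374, Gm10715, Gm11168, Gm10801 and Gm10720. The files give no function for them. Of the 30 brightest genes, 20 had an SD under 0.1, and the 30 SDs had a median of 0.073. Without replicate 3, 29 of the 30 genes stayed.

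**Figure D1:**
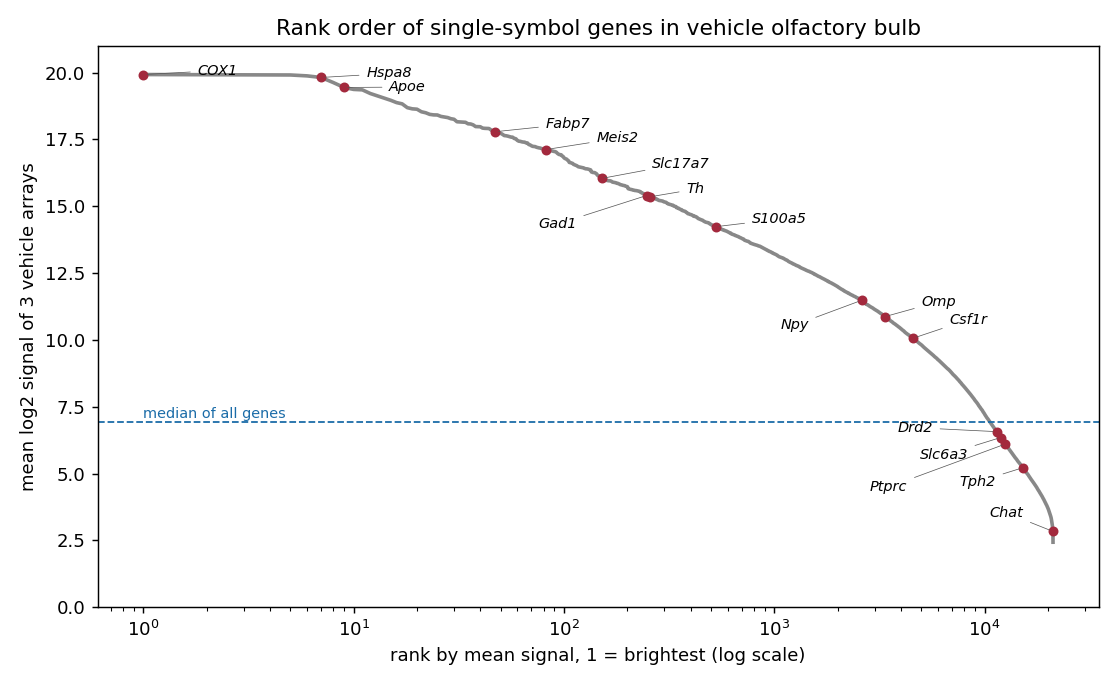
Mean log2 signal of the 3 vehicle arrays (y axis) against rank (x axis, log scale) for all 21154 single-symbol genes, with named genes as red points and the median of all genes as a dashed line. The curve starts flat at 19.93 and drops to 2.43; dopamine transporter Slc6a3 and cholinergic Chat lie under the dashed line, and granule cell gene Meis2 lies high above it.

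Some families of constitutive genes held high positions. Of the 69 cytosolic ribosomal protein genes, 66 lay above the median and 47 in the top 10%. For subunits of the respiratory chain encoded in the nucleus, 74 of 82 lay above the median and 46 in the top 10%. Chaperones ranked as high: the median of 10 genes had 98.7% of all genes below it. Hsp90aa1, the inducible cytosolic form of Hsp90, had 17.10 ± 0.27, and Calr, a calcium-binding chaperone of the endoplasmic reticulum, had 16.37 ± 0.26. The small heat shock protein Hspb1 was the dimmest of them at 6.64 ± 0.67. Mitochondrial ribosomal protein genes had 66 of 75 above the median but 1 in the top 10%, and histone genes had 47 of 59 and 13. Keratins, structural proteins of epithelia, lay low, with 2 of 47 above the median.

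Interneuron and astrocyte transcripts held the highest median positions of the cell type lists, too close to be ranked against each other. All 18 markers of granule and periglomerular cells lay above the median and 11 lay in the top 10%, and the middle of the list had 94.8% of all genes below it. Meis2, a homeobox factor of granule cells, had 17.57, 17.23 and 16.57. Synpr, a synaptic vesicle protein, had 16.93, 16.74 and 15.83. Calb2, the calcium-binding calretinin of periglomerular and granule cells, had 15.89, 15.93 and 14.85, and Penk, the enkephalin precursor, had 15.12, 15.47 and 15.80. The first 3 of these were lowest in replicate 3, as were 15 of the 18 markers, and Penk was highest there. Of all genes 35.8% were lowest in replicate 3, and of those at or above the median 42.0% were. Calb1, the calcium-binding calbindin, was the dimmest with 6.29, 6.29 and 9.04, and it was the only interneuron marker with an SD of 1 or more.

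Output neurons followed. Of 12 mitral and tufted cell markers, 10 lay above the median and 6 in the top 10%, with 86.3% of genes below the middle of the list. Slc17a7, the vesicular glutamate transporter VGLUT1, had 15.53, 16.10 and 16.50. Cdhr1, a cadherin of mitral and tufted cells, had 14.18, 14.39 and 13.02. Replicate 3 was the highest array for Slc17a7 and the lowest for Cdhr1. Cck, the cholecystokinin precursor of tufted cells, averaged 13.39 ± 0.55, and Eomes, a transcription factor of both output cell types, averaged 12.93 ± 0.66. Tbr1, a related factor shared with cortical projection neurons, had 9.54, 9.70 and 12.11. Tbx21, the factor often used to mark mitral and tufted cells, lay close to the median with 7.36 ± 0.51, and Lhx5, a homeobox factor, was the dimmest with 3.07 ± 0.052.

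The dopaminergic periglomerular list was split. Th, tyrosine hydroxylase and the rate-limiting enzyme of dopamine synthesis, had 15.69, 15.73 and 14.65, above 98.8% of genes, and was lowest in replicate 3. Pax6, a transcription factor these cells need, averaged 10.42 ± 0.65, and the vesicular monoamine transporter Slc18a2 averaged 7.93 ± 0.0058. Drd2 and the markers below it lay under the median, and Gch1, which makes the cofactor of Th, was the dimmest at 5.54 ± 0.45. The middle of the 7 markers had 46.0% of genes below it.

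Adult-born neuroblasts were represented by 9 of 10 markers above the median. Stmn1, a microtubule regulator, averaged 15.57 ± 0.41, Tubb3, the neuronal beta tubulin, 14.17 ± 0.14, and Dcx, the doublecortin of migrating neurons, 13.99 ± 0.37. Nrep, a small neuronal protein, averaged 11.86 ± 0.37. Prokr2, the receptor that guides neuroblasts into the bulb, was the dimmest at 5.36 ± 0.085. Stmn1 and Tubb3 are also made by mature neurons.

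Transcripts of olfactory sensory neurons reach the bulb in axons, since the cell bodies lie in the nose. Other cells of the bulb may make some of them too, and nasal tissue taken along at dissection would also hold them. Of 18 such markers, 11 lay above the median and 3 in the top 10%. S100a5, a calcium-binding protein of these neurons, had 14.83, 14.62 and 13.26. Ric8b, a partner of their olfactory G protein, had 13.01, 12.11 and 12.40, Stoml3, a membrane protein of their cilia, had 12.85, 11.53 and 11.67, and Ncam2, an axonal adhesion molecule, had 11.93, 11.59 and 11.98. Omp, the olfactory marker protein, had 11.81, 10.91 and 9.91, with replicate 1 highest and replicate 3 lowest. Gnal, the alpha subunit of the olfactory G protein, which striatal neurons also use, had 10.98, 10.32 and 12.59 and was highest in replicate 3. Rtp2, which carries odorant receptors to the membrane, was the dimmest with 4.04 ± 0.11. Replicate 2 was the lowest array for 12 of the 18 markers and the highest for none, while of all genes 31.8% were lowest and 31.0% highest in it. The markers of nasal epithelium were likewise lowest in replicate 2 in 8 of 9 genes, and their part in these values was not tested.

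Chemosensory receptor genes lay at the low end. Of 1095 odorant receptor genes, 9 lay above the median and none in the top 10%, and the middle of the family had 16.2% of all genes below it. The brightest were Olfr1412 (8.50 ± 0.25), Olfr32 (7.73 ± 0.13), Olfr1371 (7.60 ± 0.22), Olfr898 (7.52 ± 0.16) and Olfr1410 (7.49 ± 0.095). Each single odorant receptor is used by a small share of sensory neurons. Among 309 vomeronasal receptor genes 7 lay above the median, led by Vmn2r29 (9.78 ± 0.32), Vmn1r208 (8.64 ± 0.086) and Vmn1r209 (8.43 ± 0.27). None of the 15 trace amine receptor genes did.

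Glial markers ranked high for astrocytes and for myelin. All 13 astrocyte genes lay above the median and 7 in the top 10%. Aldoc, the brain aldolase, had 17.16, 17.21 and 17.12, and Slc1a2, the main glutamate transporter of astrocytes, had 15.75, 15.54 and 16.91. Atp1b2, a sodium pump subunit, averaged 14.42 ± 0.14, and Gja1, the gap junction protein connexin 43, 14.15 ± 0.40. Sox9, a transcription factor of astrocytes, was the dimmest at 8.59 ± 0.35. The 3 arrays were close for Aldoc, and replicate 3 was highest for Slc1a2.

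Among oligodendrocyte genes, Mbp, the myelin basic protein, had 16.66, 17.09 and 17.51, Mal, a myelin membrane protein, had 13.64, 13.83 and 14.19, and Mobp, another myelin protein, had 11.41, 11.22 and 12.60. Replicate 3 was the highest array for 11 of the 13 oligodendrocyte markers, as it was for 34.9% of all genes, and replicate 1 was the lowest for 12, as for 32.4% of all genes. Opalin, a late myelin protein, was the dimmest at 6.38 ± 0.17. Among 6 precursor markers, Lhfpl3 was the brightest at 12.95 ± 0.43, C1ql1 had 8.63 ± 0.13, the receptor Gpr17 had 8.63 ± 0.27, the proteoglycan Vcan had 8.36 ± 0.37, and Cspg4, the NG2 proteoglycan, was the dimmest at 5.80 ± 0.16.

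Fabp7, the brain fatty acid binding protein of ensheathing glia and astrocytes, had 18.51, 18.25 and 16.61. Frzb, a secreted Wnt antagonist, had 12.28, 12.51 and 11.36, Npy, neuropeptide Y, which these glia and some interneurons make, had 11.72, 11.64 and 11.09, and Mybpc1, a myosin binding protein, had 9.44, 9.53 and 8.29. All 7 ensheathing glia markers were lowest in replicate 3, as were 35.8% of all genes and 42.0% of those at or above the median. Prss56, a protease, was the dimmest at 5.90 ± 0.66. Over the list, the mean signal was 10.28, 10.36 and 9.45 in replicates 1 to 3.

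Among microglial genes, the purinergic receptor P2ry12 lay at 11.55 ± 0.45, the growth factor receptor Csf1r at 10.07 ± 0.047, Gpr34 at 9.38 ± 0.19, and Trem2, a lipid receptor, as the dimmest at 5.74 ± 0.62. Of these 13 markers 10 lay above the median. Endothelial markers had 80.4% of genes below the middle of the list. Slc2a1, the glucose transporter of the blood-brain barrier, had 12.29, 12.94 and 14.01, Ly6c1 averaged 11.42 ± 0.44, the organic anion transporter Slco1a4 11.35 ± 0.38 and Itm2a 11.06 ± 0.28, and the receptor Tek was the dimmest at 6.71 ± 0.25. Mural cells were led by Vtn, vitronectin, at 14.94 ± 0.62, then Rgs5 at 10.83 ± 0.23, Pdgfrb, the receptor of pericytes, at 9.13 ± 0.075, and the smooth muscle actin Acta2 at 7.86 ± 0.33, with the intermediate filament Des at 4.44 ± 0.27.

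Among 11 meningeal and fibroblast markers, Ptgds was followed by the growth factor Igf2 (11.67 ± 0.45), the matrix proteoglycan Dcn (11.58, 11.64 and 9.77) and Aebp1 (9.83 ± 0.40), with the transcription factor Foxd1 lowest (5.54 ± 0.076). Replicate 3 was the lowest array for 10 of the 11, as it was for 35.8% of all genes and 42.0% of those at or above the median. Ependymal and choroid plexus genes were dim, with the water channel Aqp1 at 8.69 ± 0.78, the potassium channel Kcnj13 at 7.99 ± 0.48, Clic6 at 7.18 ± 0.40, Tmem212 at 7.06 ± 0.22 and Ccdc153 at 5.25 ± 0.056.

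**Figure D2:**
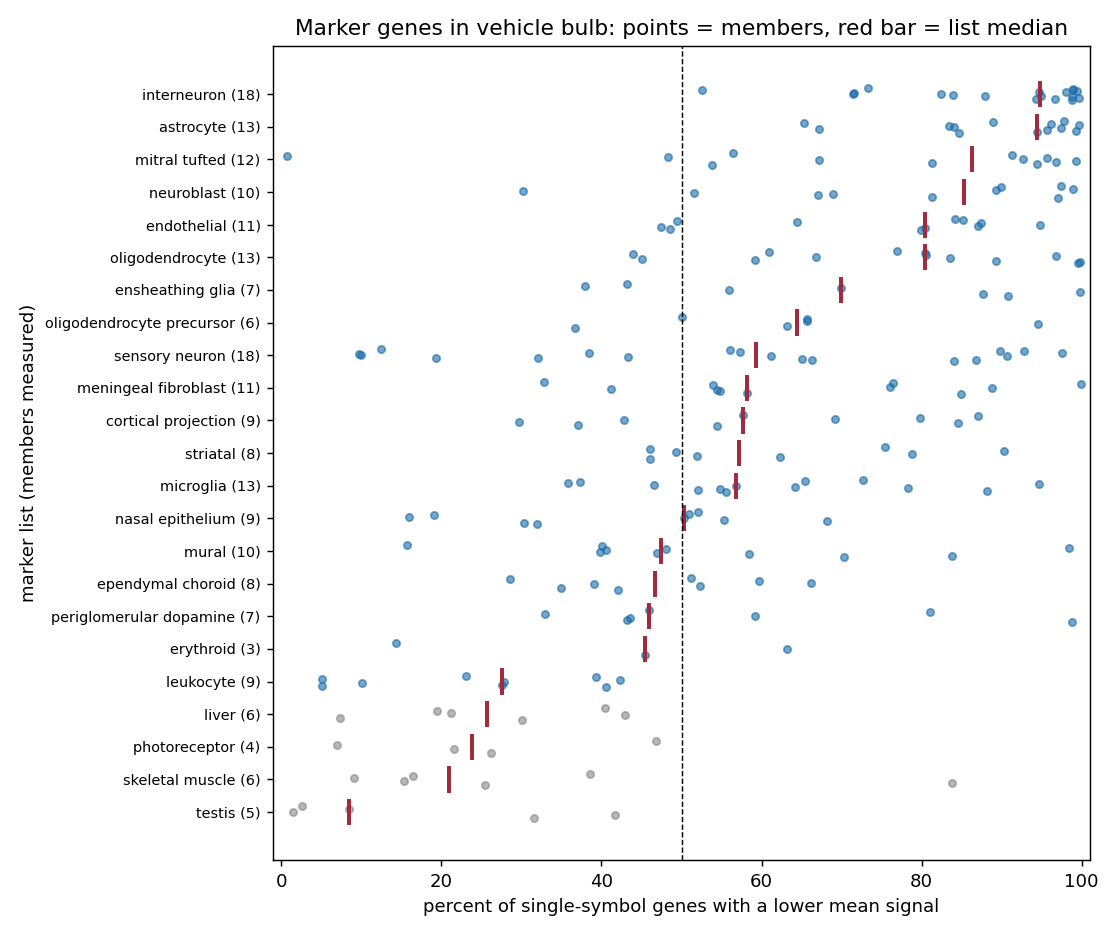
Percent of all single-symbol genes with a lower mean signal (x axis) for each measured marker (points), by marker list (y axis, number measured in brackets), with the list median as a red bar and 50% as a dashed line; grey points are lists of other organs. Interneuron and astrocyte medians lie at 94.8% and 94.4%, and the testis median lies at 8.49%.

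Lists of cells not resident in the bulb gave a scale for these positions. None of 9 leukocyte genes lay above the median: the calcium-binding S100a9 had 6.25 ± 0.75, the pan-leukocyte phosphatase Ptprc 6.11 ± 0.10, S100a8 5.20 ± 0.43, and the T cell receptor subunit Cd3e 3.68 ± 0.21. The T cell coreceptor Cd8a had 6.16, 5.95 and 5.90. Likewise 0 of 6 liver, 0 of 5 testis and 0 of 4 photoreceptor genes did. Of 6 skeletal muscle genes 1 did, the creatine kinase Ckm with 10.83 ± 0.12. Erythroid genes lay at 8.35 ± 0.39 for Slc4a1, the anion exchanger of red cells, and 6.52 ± 0.28 for the haem synthesis enzyme Alas2. The probe sets of haemoglobin genes carry several symbols and were outside the ranking. That for Hbb-bs and Hbb-b1 had 17.20, 15.20 and 16.39 and that for Hbb-bt and Hbb-b2 16.90, 15.04 and 16.12, both lowest in replicate 2. Those for Hba-a1 and Hba-a2 had 16.28, 15.97 and 15.52, and 16.15, 15.76 and 15.49, both lowest in replicate 3.

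Marker lists of neighbouring forebrain regions and of the nose had their medians in the middle of the order, where signals overlap those of the negative controls. For cortical projection neurons, Lamp5, a lysosome-associated membrane protein, had 10.78, 11.03 and 12.20, and the transcription factors Cux2 and Rorb averaged 10.24 ± 0.37 and 8.99 ± 0.73, with Emx1 lowest at 5.33 ± 0.30. Striatal genes were led by the phosphodiesterase Pde10a with 11.26, 10.43 and 14.08 and the G protein regulator Rgs9 with 9.15, 9.39 and 11.78. Rasgrp2 averaged 9.70 ± 0.14, the adenosine receptor Adora2a averaged 8.27 ± 0.64, and the orphan receptor Gpr6 averaged 6.57 ± 0.16. Replicate 3 was the highest array for 9 of 9 cortical and 6 of 8 striatal markers, as it was for 34.9% of all genes.

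Genes of GABA and glutamate transmission ranked near the top. All 5 GABA genes lay above the median and 4 in the top 10%. Gad1, the larger of the enzymes that make GABA, had 15.58, 15.73 and 14.90, and Gad2, its partner, had 13.97, 13.87 and 13.60. Abat, which breaks GABA down, had 15.21, 15.24 and 14.81. Slc32a1, the vesicular GABA transporter, had 12.94, 13.45 and 12.25. Each of the 5 was lowest in replicate 3, as were 35.8% of all genes and 42.0% of those at or above the median.

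Of 7 glutamate genes 6 lay above the median. Beside Slc1a2 and Slc17a7, the astrocyte transporter Slc1a3 had 12.95, 13.45 and 13.73. The neuronal transporter Slc1a1 had 11.31, 10.94 and 11.15. Slc17a6, the second vesicular transporter VGLUT2, had 8.81, 8.79 and 8.78 and the third, Slc17a8, lay below the median.

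Dopamine genes other than Th were spread over the order. The monoamine oxidases Maoa and Maob averaged 9.04 ± 0.22 and 8.61 ± 0.072. With Slc18a2, 5 of 8 lay above the median, and 3 lay below it. Those 3 were Ddc, which converts the product of Th to dopamine, at 6.32 ± 0.032, the dopamine transporter Slc6a3 at 6.35 ± 0.11, and Gch1. None of the 9 genes for making or carrying serotonin, noradrenaline, acetylcholine and histamine lay above the median. These transmitters reach the bulb mostly in axons whose cell bodies lie elsewhere. Slc6a4, the serotonin transporter, was the brightest of them at 5.57 ± 0.15, and the vesicular acetylcholine transporter Slc18a3 the dimmest at 2.67 ± 0.25.

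Among 21 neuropeptide precursors 12 lay above the median. Penk and Cck were in the top 10%. Trh, the thyrotropin-releasing hormone precursor, had 12.14, 12.00 and 11.17. Sst, the somatostatin precursor, had 8.96, 9.70 and 13.18, and Tac1, the precursor of substance P, had 8.40, 8.81 and 12.55. Both were far higher in replicate 3 than in the others. Without replicate 3, Tac1 lay above 65.3% of genes, against 77.2% with it.

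Npy, Nmb, Vip, Cartpt, Crh, Tac2 and Nts made up the rest above the median. Nmb, neuromedin B, averaged 9.77 ± 0.46, and Vip, vasoactive intestinal peptide, 9.49 ± 0.46. Cartpt averaged 8.28 ± 0.19 and Crh, the corticotropin-releasing hormone made by some bulb interneurons, 7.42 ± 0.19. Tac2 and Nts lay just above the median, with 7.06 ± 0.31 and 7.02 ± 0.70. The 9 below the median included Pdyn, Oxt, Pomc, Gal, Hcrt and Avp, of which Avp, the vasopressin precursor, was the dimmest at 4.54 ± 0.15.

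**Figure D3:**
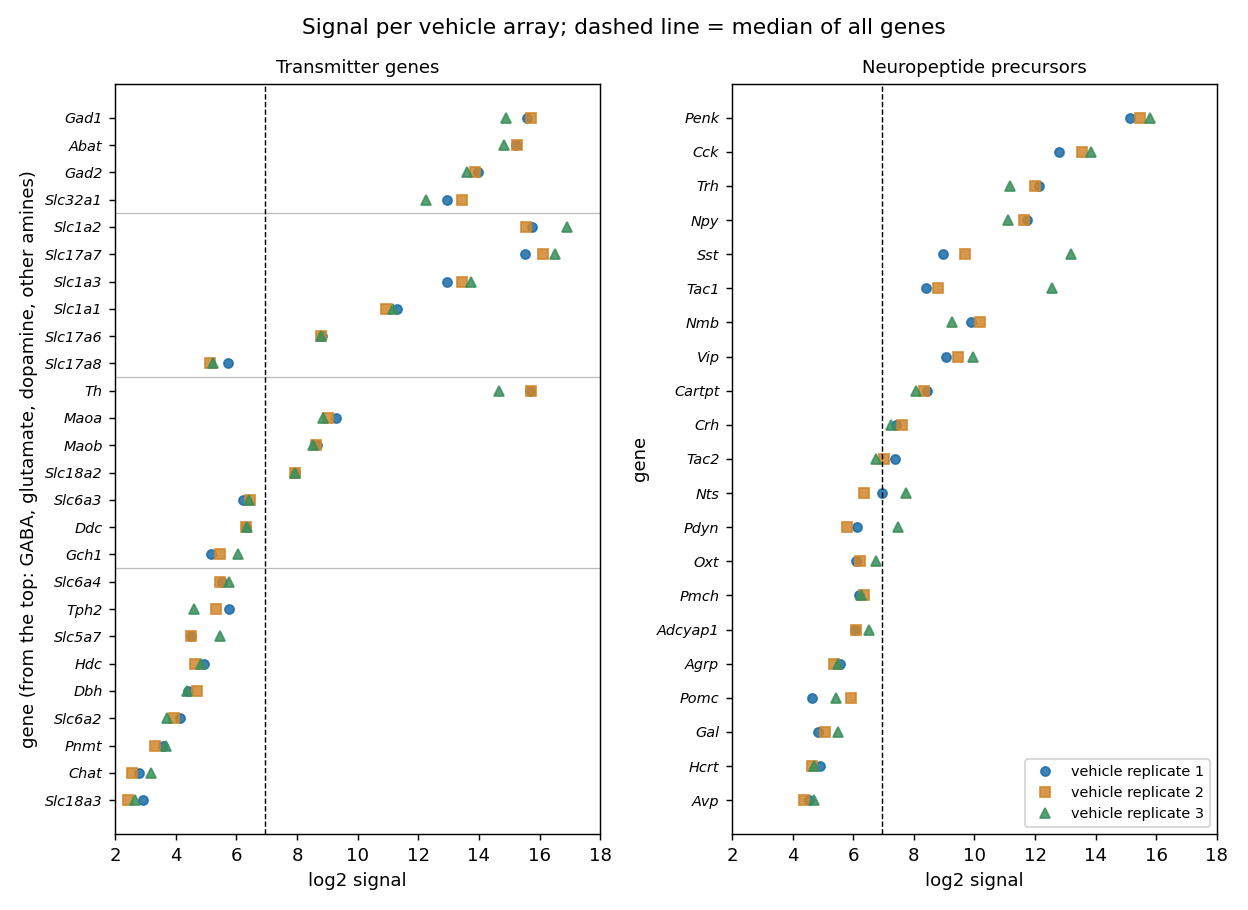
Log2 signal (x axis) of transmitter genes (left panel) and neuropeptide precursors (right panel) on the 3 vehicle arrays, 1 symbol per array, with the median of all genes as a dashed line. Gad1, Slc17a7, Th and Penk lie far right of the line, all 9 genes of other amines and acetylcholine lie left of it, and Sst and Tac1 have their replicate 3 value apart from the other two.

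Ionotropic glutamate and GABA receptors were bright as well. All 4 AMPA receptor subunits were in the top 10%: Gria2, which limits calcium entry, had 15.93, 15.65 and 15.86, Gria1 averaged 15.01 ± 0.20, Gria3 14.14 ± 0.47 and Gria4 13.40 ± 0.37. Of 7 NMDA receptor subunits 6 lay above the median, led by the obligatory Grin1 (15.30 ± 0.28), then Grin2b (15.26 ± 0.015), Grin2a (12.53 ± 0.17) and Grin2c (9.09 ± 0.23), with Grin3b lowest (5.05 ± 0.078). Kainate receptor subunits ran from Grik2 (13.79 ± 0.10) over Grik5, Grik3 and Grik1 to Grik4 (6.26 ± 0.20). All 7 metabotropic glutamate receptors lay above the median, with Grm2 at 11.77 ± 0.58, Grm5 at 11.67 ± 0.32, Grm4 at 11.26 ± 0.60 and Grm6 lowest at 7.22 ± 0.12.

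Of 20 GABA receptor genes 14 lay above the median and 9 in the top 10%. Gabbr1, a GABA-B receptor subunit, had 14.93, 15.10 and 15.19. Gabrb2, a beta subunit of the GABA-A receptor, averaged 14.62 ± 0.15, and Gabrp was the dimmest at 3.67 ± 0.26. Glycine receptors had 1 of 4 genes above the median, the beta subunit Glrb with 13.95 ± 0.39, while Glra1, Glra2 and Glra3 averaged 6.36 ± 0.27, 6.24 ± 0.12 and 6.20 ± 0.92.

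Receptors for amines were in the middle or below. None of the 5 dopamine receptors lay above the median, and their means, in order Drd5, Drd1, Drd2, Drd3 and Drd4, were 6.63 ± 0.12, 6.57 ± 1.67, 6.57 ± 0.91, 6.39 ± 0.05 and 6.28 ± 0.31, so their order was not resolved. Drd2 had 6.17, 5.93 and 7.61, and both it and Drd1, at 8.45 there, were highest in replicate 3. Without replicate 3 the middle of this list had 40.7% of genes below it, against 46.0% with it. For serotonin receptors 6 of 14 lay above the median, led by Htr2a (10.41 ± 0.54), Htr1f (9.87 ± 0.41), Htr2c (8.09, 8.39 and 11.42) and Htr4 (7.47 ± 0.055), with Htr2b lowest (3.77 ± 0.28). Adrenergic receptors had 2 of 9 above it, Adra1a at 9.19 ± 0.25 and Adra2a at 7.83 ± 0.22, followed by Adra1d at 6.58 ± 0.23 and Adra1b at 6.29 ± 0.09, with Adrb3 lowest at 4.52 ± 0.47.

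Muscarinic acetylcholine receptors had 4 of 5 above the median, with Chrm1 at 10.75 ± 0.35, Chrm4 at 9.66 ± 0.43, Chrm2 at 8.84 ± 0.45, Chrm3 at 7.10 ± 0.13 and Chrm5 at 3.65 ± 0.20. Nicotinic subunits had 6 of 13, led by Chrnb2 at 9.52 ± 0.41, Chrna3 at 7.99 ± 0.60, Chrna4 at 7.94 ± 0.86 and Chrna7 at 7.54 ± 0.27, with Chrna5 lowest at 3.28 ± 0.20. Chat, the enzyme that makes acetylcholine, averaged 2.84 ± 0.31. The histamine autoreceptor Hrh3 had 10.94, 11.46 and 13.10, Hrh2 averaged 8.22 ± 0.56, Hrh1 6.16 ± 0.16 and Hrh4 5.24 ± 0.13.

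Peptide receptors were spread over the order, with 15 of 30 above the median. The PACAP receptor Adcyap1r1 had 14.02 ± 0.11, the neurotensin receptor Ntsr2 of astrocytes 13.24 ± 0.45, the VIP receptor Vipr2 11.46 ± 0.44 and the corticotropin-releasing hormone receptor Crhr1 11.09 ± 0.57, while the vasopressin receptor Avpr1a was the dimmest at 3.85 ± 0.21. Of 12 hormone receptors 7 lay above it, led by the thyroid hormone receptor Thra at 13.84 ± 0.27, the insulin receptor Insr at 12.27 ± 0.20, the mineralocorticoid receptor Nr3c2 at 11.53 ± 0.18 and Igf1r at 10.25 ± 0.16, with the oestrogen receptor Esr2 lowest at 3.54 ± 0.11. The adenosine receptor Adora1 had 11.24 ± 0.44, the cannabinoid receptor Cnr1 had 8.84, 8.39 and 11.21, Adora2b had 7.32 ± 0.091 and Cnr2 had 4.89 ± 0.14. Over all 39 lists of cell types, transmitters and receptors, 28 had their middle member above the median of all genes and 5 had it in the top 10%. Without replicate 3 the first count was 26.

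Clock genes were bright, with 15 of 16 above the median. Dbp, a transcription factor with a strong daily rhythm in many tissues, had 14.42, 15.04 and 16.13. Clock averaged 14.10 ± 0.19, the repressor Cry2 12.94 ± 0.20 and Bhlhe40 12.75 ± 0.24, with Tef lowest at 4.96 ± 0.32. Of 9 genes induced by glucocorticoids 7 lay above the median, led by the cochaperone Fkbp5 (11.74 ± 0.50), the cell cycle inhibitor Cdkn1a (11.61, 12.74 and 10.70), Zbtb16 (10.64 ± 0.66) and Tsc22d3 (10.37 ± 0.47), with the kinase Pdk4 lowest (5.05 ± 0.52).

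Genes that LPS induces were examined because the description of replicate 3 names it. Of 15 such genes 3 lay above the median. Nfkbia, the inhibitor of NF-kappaB, had 8.23, 8.64 and 7.92, the chemokine Ccl4 had 7.89, 8.02 and 7.85, and the transcription factor Cebpd had 7.15, 7.47 and 6.51. None of these was highest in replicate 3. The 12 others had means from 3.10 for the cytokine Tnf to 5.56 for the chemokine Ccl3, among them Saa3, Il1b, Icam1, Ccl2, Cxcl1, Bcl3, Tlr2, Lcn2, Il6 and Cxcl10. The acute phase protein Lcn2 had 4.61, 4.34 and 4.24, and Cxcl10, which interferon also induces, had 3.27, 3.63 and 3.73. Over the list, the mean signal was 5.23, 5.32 and 5.24 in replicates 1 to 3, so replicate 3 lay between the others, and 6 of the 15 genes were highest and 6 lowest in it. Of all genes 34.9% were highest and 35.8% lowest in replicate 3. The 12 dimmer genes had means below the negative control medians of 6.94 to 7.12, where a change in signal is hard to see. An effect of LPS in replicate 3 was not tested. The 10 interferon-induced genes had mean signals of 5.65, 5.66 and 5.84, and 7 of them were highest and 2 lowest in replicate 3. Their levels ran from Ifit3, the brightest at 8.20 ± 0.36, over Oasl2 at 6.55 ± 0.19 and Ifi44 at 6.15 ± 0.49 to Irf7 at 3.19 ± 0.18.

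The genes that varied most among the 3 arrays showed a few patterns. An SD of 1 or more was found in 125 of the 10582 genes at or above the median, which is 1.18%. In 98 of the 125 replicate 3 was the array farther from the middle value, higher in 78 and lower in 20, while it was replicate 1 in 16 and replicate 2 in 11. The 16 include 6 predicted genes of identical values, named below, which are 1 measurement. Among all 10582 genes replicate 3 was the odd array in 43.6%, replicate 1 in 29.0% and replicate 2 in 25.3%. Without replicate 3, 35 genes had an SD of 1 or more, 23 of them among the 125. Without replicate 1 there were 196 such genes and without replicate 2 there were 218. These SDs are over 2 arrays at the same threshold, so the counts compare with each other and not directly with the 125.

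**Figure D4:**
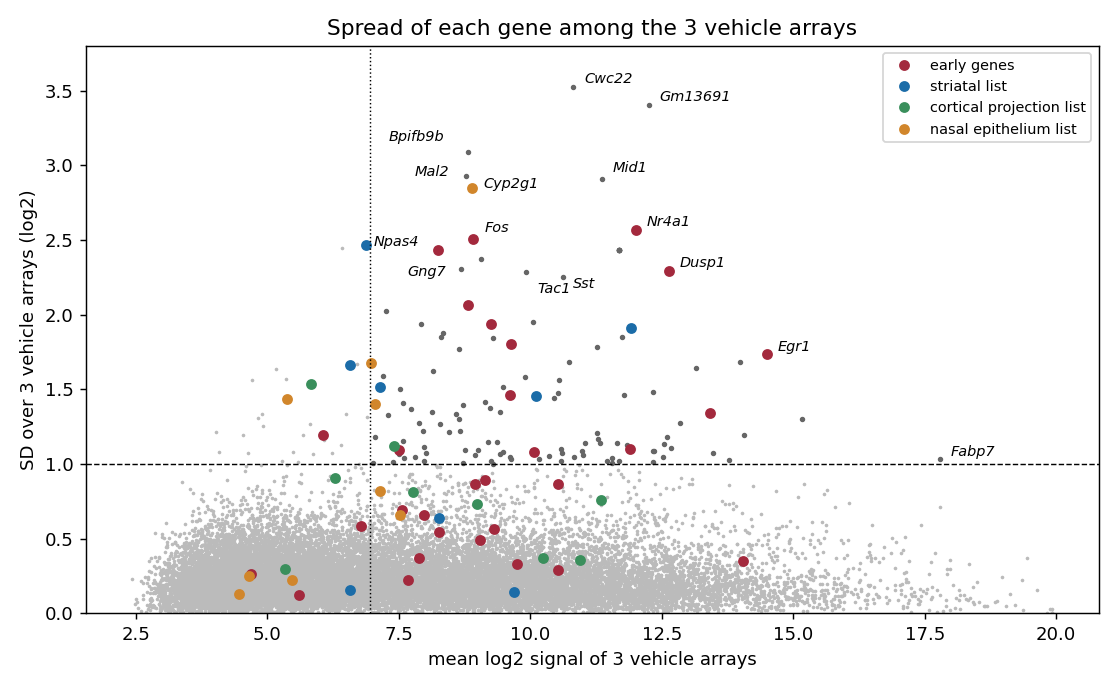
SD over the 3 vehicle arrays (y axis, log2) against mean log2 signal (x axis) for all 21154 genes, with early genes in red, striatal genes in blue, cortical projection genes in green and nasal epithelium genes in orange; the dashed line marks an SD of 1 and the dotted line the median signal. Most genes lie close to the median SD of 0.217, and Cwc22, Gm13691 and Mid1 lie near 3 or above with Nr4a1 and Dusp1 above 2.

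The largest spread was that of Cwc22, a splicing factor whose copy number differs among mice, with 7.06, 14.06 and 11.33. The predicted gene Gm13691 had 8.72, 15.52 and 12.51. The predicted genes Gm13693, Gm13694, Gm13695, Gm13696, Gm13697 and Gm13698 had the same 9.24, 14.11 and 11.74 each, so they cannot be told apart and are 1 measurement. Cwc22, Gm13691 and this shared measurement had the order replicate 2, replicate 3, replicate 1 from high to low. Mid1, a ubiquitin ligase gene that spans the pseudoautosomal boundary in laboratory mice, had 14.72, 9.79 and 9.59, with replicate 1 alone high.

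Other genes were high in replicate 1 and low in replicate 2. Bpifb9b, a secreted protein of a family found in nasal glands, had 12.32, 6.49 and 7.64, Cyp2g1, a cytochrome P450 of the olfactory mucosa, had 11.03, 5.66 and 10.00, and Gpx6, a glutathione peroxidase of that tissue, had 10.00, 6.17 and 7.61. The 9 listed genes of the nasal epithelium were all highest in replicate 1, and 8 were lowest in replicate 2. Of all genes 34.2% were highest in replicate 1 and 31.8% lowest in replicate 2. Sec14l3 had 7.96, 6.76 and 7.83, the gland protein Bpifb9a 8.05, 6.45 and 6.94, the carbonyl reductase Cbr2 8.12, 5.46 and 7.54, and the antimicrobial Reg3g, the dimmest, 4.57, 4.47 and 4.32. Over this list the mean signal was 7.33, 5.35 and 6.49 in replicates 1 to 3. The mean of the sensory neuron list was 8.47, 7.95 and 8.28, the same order of arrays. Of its 18 genes 12 were lowest in replicate 2 and 4 in replicate 3, the latter including Omp and S100a5. The part of nasal tissue in the sensory neuron values was not tested. Without replicate 1 the middle of the nasal list had 41.0% of genes below it, against 50.3% with it, and that of the sensory neuron list had 58.9%, against 59.2%.

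Another group was high in replicate 3. Mal2, a protein of membrane transport, had 7.17, 6.99 and 12.15. The predicted gene 3110035E14Rik had 7.78, 7.61 and 11.80. Gng7, a G protein gamma subunit abundant in the striatum, had 7.07, 7.67 and 11.33. Rph3a, a synaptic vesicle protein, had 5.68, 6.54 and 9.54, and Enc1, an actin-binding protein of cortical neurons, had 9.16, 8.71 and 12.29. With Tac1 and Sst these were the 7 of the 25 most variable genes that were high in replicate 3, and in each replicates 1 and 2 were within 1 log2 unit of each other. Without replicate 3 the mean of Sst was 9.33, against 10.61 with it, and that of Tac1 8.61, against 9.92. Of genes described above, Pde10a averaged 10.85 without it, against 11.92, Htr2c 8.24, against 9.30, Cnr1 8.62, against 9.48, Tbr1 9.62, against 10.45, and Hrh3 11.20, against 11.83. Calb1 averaged 6.29 without it, below the median of all genes, against 7.21 with it.

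The cortical and striatal lists moved with this group. The cortical list had mean signals of 7.72, 7.94 and 9.06 in replicates 1 to 3 and the striatal list 7.69, 7.75 and 9.74. Oligodendrocyte markers had 10.39, 10.73 and 11.16. In the opposite direction, interneuron markers had 12.97, 13.04 and 12.49, meningeal markers 9.52, 9.54 and 8.87, and ensheathing glia markers 10.28, 10.36 and 9.45. The part of other forebrain tissue in the values of replicate 3 was not tested. Without replicate 3 the middle of the cortical list had 53.5% of genes below it, against 57.7% with it, and the middle of the striatal list 52.9%, against 57.1%. The oligodendrocyte list had 77.1% below its middle without replicate 3, against 80.4% with it, the interneuron list 95.6%, against 94.8%, the ensheathing glia list 73.3%, against 70.0%, and the meningeal list 61.4%, against 58.2%. The list means of astrocyte markers, 12.55, 12.64 and 12.51, and of ribosomal protein genes, 12.80, 12.79 and 12.73, differed little among the arrays. Single astrocyte markers moved in both directions: Slc1a2 had 15.75, 15.54 and 16.91, and Gja1 had 14.37, 14.39 and 13.69.

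**Figure D5:**
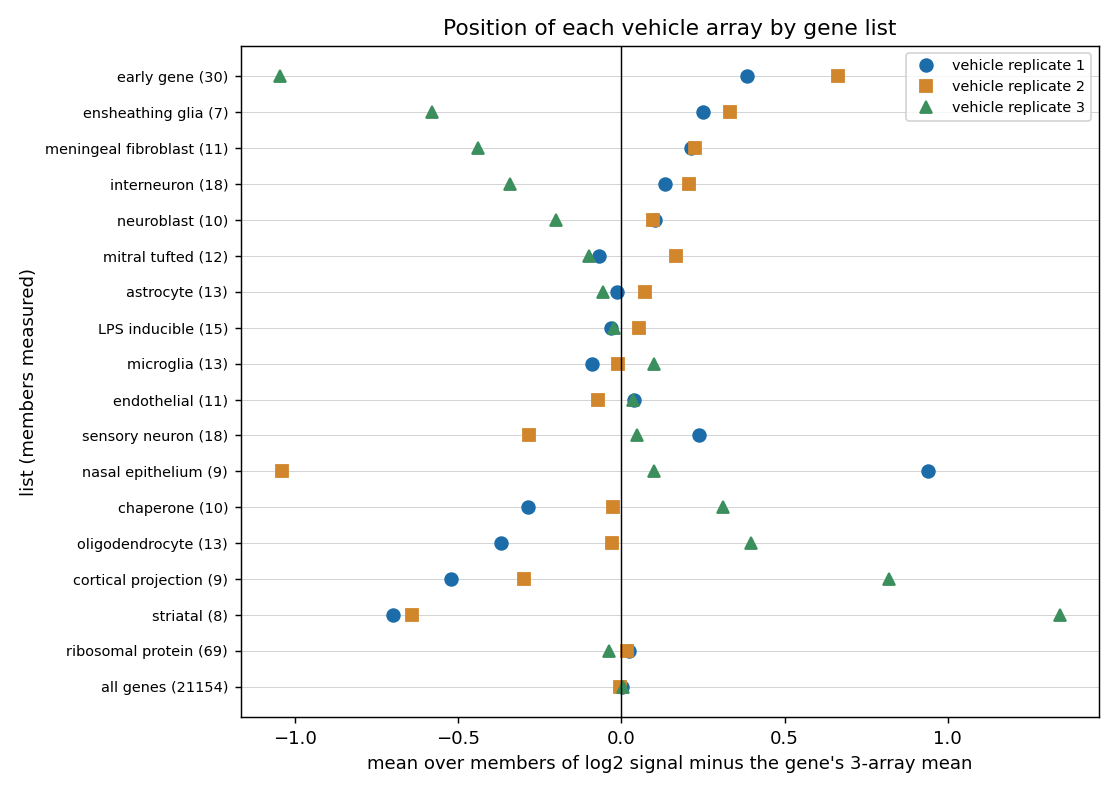
Mean over list members of the log2 signal minus each gene's 3-array mean (x axis), by gene list (y axis, number measured in brackets), with 1 symbol per vehicle array. Replicate 3 lies at -1.05 for the early genes and at 1.34 for the striatal list, replicate 1 lies at 0.94 and replicate 2 at -1.04 for the nasal epithelium list, and the 3 symbols coincide near 0 for all genes.

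A further group was low in replicate 3 and consisted of early response genes, which neurons transcribe within minutes of activity. Of 30 such genes 25 were lowest in replicate 3, against 35.8% of all genes and 42.0% of those at or above the median. Of the 30, 26 lay above the median, and 14 had an SD of 1 or more, against 155 of all 21154 genes. At or above the median, 13 early genes were among the 125 of 10582 genes with such an SD. Nr4a1, a nuclear receptor, had 13.07, 13.88 and 9.08. Fos, which pairs with Jun proteins in AP-1, had 10.81, 9.87 and 6.08. Npas4, a neuronal transcription factor that calcium signals switch on, had 9.83, 9.48 and 5.45. In all of these replicates 1 and 2 were close and replicate 3 was lower by more than 3 log2 units.

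Dusp1, a phosphatase that switches off MAP kinases, had 13.97, 13.95 and 9.99. Junb, another AP-1 subunit, had 10.14, 9.89 and 6.44, and Btg2, an antiproliferative gene, had 10.67, 10.03 and 7.04. Egr1, a zinc finger factor and the brightest of the list, had 15.33, 15.67 and 12.51, Fosb had 10.27, 11.02 and 7.59, and Arc, which regulates AMPA receptor uptake, had 10.53, 10.40 and 7.93. The nuclear receptor Nr4a2 had 12.25, 12.78 and 10.66 and its relative Nr4a3 13.54, 14.70 and 12.02. Egr2 had 10.59, 10.80 and 8.83, and Ier2 had 6.84, 6.65 and 4.68. Each of these was lowest in replicate 3.

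The others on the list varied less, with the exception of Bdnf, the brain-derived neurotrophic factor, which had 6.66, 7.10 and 8.74 and was high in replicate 3. Homer1, a scaffold of glutamate receptors, averaged 14.04 ± 0.35, the MAP kinase phosphatases Dusp5 and Dusp6 10.54 ± 0.86 and 9.74 ± 0.33, and the stress factor Atf3 10.53 ± 0.29. Jun averaged 9.31 ± 0.56, the kinase Sik1 9.15 ± 0.89, the pentraxin Nptx2 9.04 ± 0.49, Fosl2 8.95 ± 0.87, Egr3 8.26 ± 0.54 and Gadd45b 7.99 ± 0.66. The means of the Egr3 probe sets differed by up to 3.81, so its level and SD are those of an average over unlike signals. Cyr61, Ier5 and the cyclooxygenase Ptgs2 averaged 7.88 ± 0.37, 7.67 ± 0.23 and 7.56 ± 0.69, and below the median were Egr4 (6.78 ± 0.58), Klf2 (5.61 ± 0.12) and Klf4 (4.69 ± 0.27). Over the list the mean signal was 9.73, 10.01 and 8.30. Without replicate 3 the middle of the list had 75.6% of genes below it, against 70.1% with it.

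Many early genes carry the cAMP response element, the palindrome TGACGTCA that the activity-dependent factor CREB binds, or its shorter form TGACG. Both were searched on both strands in the 200 bases before each gene start in the RefSeq promoter table (GRCm38.p6), and each full element also holds the short form on either strand. The full element occurred in 483 of 32851 promoters (1.47%) and the short form in 15.7%. Counted by gene, 1.69% of the 27025 genes in the table had the full element and 17.5% the short form in at least 1 promoter. Of the 14 early genes with an SD of 1 or more, 11 had promoters in the table, 21 in all since some genes have several starts. The full element occurred in 2 of these 11 genes and the short form in all 11, or in 13 of the 21 promoters. Without Bdnf, which was high in replicate 3, the short form occurred in 10 of 10 genes and 12 of 14 promoters. For early genes with an SD under 1, 4 of 12 genes held the short form and none the full element. These genes were split by their values on the same arrays, so the shares are no independent evidence. The difference between them was not tested. A match is a description of the letters and not of binding.

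The promoters are shown for the 6 early genes of largest SD that are in the table. Capitals mark TGACGTCA and TGACG on either strand (CGTCA on the strand shown), and each sequence runs 5′ to 3′ on the strand of its gene and ends at the base before the start. Nr4a1 is from chr15:101266646-101266845, plus strand, and Fos from chr12:85473690-85473889, plus strand. Npas4 is from chr19:4989972-4990171, minus strand, and Dusp1 from chr17:26508473-26508672, minus strand. Junb is from chr8:84978749-84978948, minus strand, and Btg2 from chr1:134079156-134079355, minus strand.
Nr4a1: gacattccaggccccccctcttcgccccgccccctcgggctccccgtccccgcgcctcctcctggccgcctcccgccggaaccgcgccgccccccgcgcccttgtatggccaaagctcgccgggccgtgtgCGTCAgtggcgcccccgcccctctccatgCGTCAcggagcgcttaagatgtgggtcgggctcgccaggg
Fos: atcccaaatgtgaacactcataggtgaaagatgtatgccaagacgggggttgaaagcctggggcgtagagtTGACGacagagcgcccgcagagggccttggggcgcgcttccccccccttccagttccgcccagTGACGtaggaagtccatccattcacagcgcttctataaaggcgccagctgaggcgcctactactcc
Npas4: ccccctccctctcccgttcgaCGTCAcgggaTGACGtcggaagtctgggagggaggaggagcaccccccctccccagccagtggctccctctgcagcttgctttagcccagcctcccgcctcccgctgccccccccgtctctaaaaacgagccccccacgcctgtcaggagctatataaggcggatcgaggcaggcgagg
Dusp1: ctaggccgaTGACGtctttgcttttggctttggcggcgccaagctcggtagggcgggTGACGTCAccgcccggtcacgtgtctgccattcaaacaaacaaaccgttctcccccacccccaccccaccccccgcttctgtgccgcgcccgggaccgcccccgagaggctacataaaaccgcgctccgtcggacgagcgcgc
Junb: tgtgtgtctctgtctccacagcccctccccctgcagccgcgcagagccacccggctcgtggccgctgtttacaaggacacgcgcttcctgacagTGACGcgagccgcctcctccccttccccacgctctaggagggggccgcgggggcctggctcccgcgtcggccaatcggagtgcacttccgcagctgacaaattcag
Btg2: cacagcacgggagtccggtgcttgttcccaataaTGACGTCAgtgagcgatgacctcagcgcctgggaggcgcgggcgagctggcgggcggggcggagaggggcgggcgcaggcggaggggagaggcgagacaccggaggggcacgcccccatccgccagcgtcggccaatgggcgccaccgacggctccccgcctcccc
In Dusp1 the full element began at -143 from the start and in Btg2 at -166. Fos held short forms at -129 and -66, Npas4 at -179 and -169, Nr4a1 at -69 and -40, and Junb at -106. Dusp1 had a further short form at -191.

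At the other end, 310 of the 5286 genes in the top 25% by signal, or 5.86%, had an SD under 0.05. Aldoc, at 17.16 ± 0.045, was among the named genes with a small spread. Slc18a2, at 7.93 ± 0.0058, also had a small spread, at a lower signal.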

How the data were processed

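The authors deposited a table of log2 signals, rounded to 2 decimals, for 22206 probe sets. The design text names SST-RMA, a signal space transformation followed by robust multi-chip averaging, and the submitters' processing notes list RMA, limma and Transcriptome Analysis Console 4. The deposited series matrix holds log2 values of the same arrays, and 98.4% of vehicle values in both lay within 0.0051 of each other. No build of the genome is named for the arrays: not given in the sources used here. Of the probe sets, 836 with several symbols and 3 with none were left out. The 132 genes with several probe sets were averaged over them, and in 70 of these the probe sets differed by 1 log2 unit or more. Symbols of 24 genes are stored as dates, and these were ranked but not named.

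Genes were ranked by the mean of the 3 vehicle arrays, and position was the percent of genes with a lower mean. Spread was the SD of the 3 arrays. Arrays have no read depth, and 3 of them limit the precision. No test was run, since only 1 group was described. Of 499 genes on 50 lists, 485 were measured, 1 under a synonym, and 14 lie in probe sets with several symbols. Named were the 30 brightest genes, the measured transmitter genes above the median, the 4 brightest and the dimmest of each other list, the 25 genes of largest SD at or above the median, 5 odorant and 3 vomeronasal receptors, and all early, LPS-induced and erythroid genes. Omp, Gnal, Tbr1, Tbx21, the haemoglobin genes and those of the closing observations were named after their values were seen. Some genes that these rules name are not reported here. The members and lists were chosen with earlier results of these data known. Alternatives were the series matrix, the median over arrays, the brightest probe set, probe sets with several symbols kept, added quantile normalization, each array left out, and other measures and filters of spread. The scripts, in Python 3.11.15 with numpy 2.4.6, pandas 2.3.3 and matplotlib 3.10.9, were tested on simulated data.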

Additional observations from a re-analysis of the deposited data

How the results depend on the processing

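The 30 brightest genes and the positions of lists depended little on the processing, and the count of the most variable genes depended on which arrays entered. An SD of 1 or more was found in 125 genes as reported. Leaving out 1 array gave 35 genes without replicate 3, 196 without replicate 1 and 218 without replicate 2. These SDs are over 2 arrays at the same threshold, so the counts compare with each other and not directly with the 125. Restricting the count to the top 25% by mean signal gave 62, since fewer genes enter. The series matrix and the brightest probe set each gave 125, added quantile normalization 127, probe sets with several symbols 133, no filter on dim genes 155, and a range over 1.7 in place of the SD 159. Identical values counted once gave 120, a setting chosen after seeing the data, as was leaving out predicted genes. Of the 30 brightest genes 25 to 30 stayed under the settings planned, and the lowest count came with probe sets of several symbols kept, which add genes to the order. The number of lists above the median was 26 to 28 of 39, or 22 when positions were counted only among genes above the median of the negative controls, which removes dim genes from the scale. Among 50 lists, leaving out 1 array moved the median position by 5 points or more in 1 list without replicate 1, in 0 without replicate 2 and in 2 without replicate 3. No paired analysis was possible because only 1 group was described and no result comes from a test. With 3 arrays no outlier test was applied, and overlap with the negative controls limits what can be said of genes with a signal under about 11.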

Other observations

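Several synaptic and signalling genes with an SD of 1 or more lay outside the lists and were picked after their values were seen. Chn1, a Rac regulator of neurons, had 14.40, 14.43 and 16.67 in replicates 1 to 3. Hpca, the calcium sensor hippocalcin, had 10.44, 10.92 and 13.86, and Rgs4, a regulator of G protein signalling, had 10.25, 10.24 and 13.33. Nrgn, the calmodulin-binding neurogranin of forebrain principal neurons, had 10.46, 10.70 and 12.66. Pvalb, the parvalbumin of fast-spiking interneurons, had 6.62, 6.25 and 8.15. In all 5 genes replicates 1 and 2 were close and replicate 3 was higher.

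Other genes went the opposite way. Islr, a secreted matrix protein, had 12.65, 13.27 and 11.15, and Hey2, a Notch target, had 12.17, 12.13 and 10.35. Each was lowest in replicate 3, as were the ensheathing glia and meningeal lists. The part of tissue composition in these values was not tested.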
